A study of Homo sapiens with 6 samples.

Results

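Granins are the acidic proteins of dense-core secretory granules, and prohormone convertases are the proteases that cut peptide precursors inside those granules. The 10 genes described here are 5 granins or granin-like proteins (CHGA, CHGB, SCG2, SCG3 and VGF), the convertases PCSK1 and PCSK2, the convertase-binding proteins PCSK1N and SCG5, and the carboxypeptidase CPE. They were found by NCBI gene identifier among the 28395 genes of the count table, and all 10 were listed there. The group was put together after the comparison of WT with NUAK2-CR had been seen: PCSK1N was among the genes with the lowest fold changes. The differences of these 10 genes between WT and NUAK2-CR are therefore given as a description, with no test.

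The libraries came from U251, an established human glioblastoma cell line of astrocytic type (labelled U251MG), and RNA-sequencing covered WT and NUAK2-CR cells with 3 libraries each. NUAK2 is a serine/threonine kinase of the AMPK-related family, and NUAK2-CR cells had been edited at NUAK2 with CRISPR-Cas9 delivered by lentivirus, after which single cells were sorted to found clones. The sample labels do not name the clone behind the NUAK2-CR libraries and give no control with a non-targeting guide, so an effect of the edit, of the vector and of the clone cannot be told apart. Nothing in the labels says whether the 3 libraries of a group came from separate cultures, so tests of other genes below measure the spread between these libraries, which may be technical.

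In neurons and endocrine cells, granins aggregate in the trans-Golgi network and help to form granules, and several are themselves cut into peptides. PCSK1 (PC1/3) and PCSK2 (PC2) cut precursors after pairs of basic residues, and CPE then trims the exposed lysines and arginines. PCSK1N encodes proSAAS, which binds and inhibits PCSK1, and SCG5 encodes a chaperone needed for PCSK2 to become active. Glial cells and astrocytic tumours are known to make some of these proteins too, SCG2 and CPE among them.

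Totals ran from 29648445 to 55574081 counts per library, and 14873 genes had enough counts to be tested. Of these, 3912 were higher and 4195 were lower in NUAK2-CR at an adjusted p under 0.05 in edgeR's quasi-likelihood test. NUAK2 itself stood at 1926, 1457 and 1580 normalized counts in the WT libraries and at 799, 961 and 849 in those of NUAK2-CR, without overlap, so its transcript was lower but still present. A normalized count is a count scaled to the mean effective library size, so that libraries can be compared. The log2 fold change of NUAK2 was -0.93. Its 20 nearest tested genes had a median of -0.42, with 12 called lower and 1 higher. Over the 1540 other tested genes of chromosome 1 the median was -0.43, with 900 called lower and 137 higher. Whether that shift has a part in the level of NUAK2 was not tested. Of 15 astroglial markers 13 were tested and 2, AQP4 and OLIG2, were at or under 3 counts in every library, with GFAP at 88323 ± 5494 (SD, n = 3) in WT and 14984 ± 1129 in NUAK2-CR. Of 15 markers of leukocytes, endothelium and epithelium 8 were tested and 3 were at or under 3 counts in every library. PTPRC, CD3E, AIF1 and EPCAM, markers of leukocytes, microglia and epithelium named after their values were seen, had at most 4 counts in any library. Other markers of the same list were expressed, among them KRT18, a keratin gene, at 3520 ± 359 normalized counts in WT and CD68 at 683 ± 45.6. Endothelial markers are not named here, and the absence of other cell types is not read from these genes.

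The start of PCSK1N is shown because this gene was without a count in NUAK2-CR. A start of PCSK1 and those of VGF and CHGA are shown because they share a motif. The sequences are from RefSeq (GRCh38.p14), run 5′ to 3′ on the gene's strand and end at the base before the start site. For VGF and CHGA the start site used lies inside the gene span given below, not at its end. PCSK1N is given as 250 bases (chrX:48835611-48835860, minus strand), PCSK1 as 100 bases (chr5:96433249-96433348, minus strand), VGF as 100 bases (chr7:101165570-101165669, minus strand) and CHGA as 100 bases (chr14:92923050-92923149, plus strand). Capitals mark the cAMP response element TGACGTCA and its core TGACG, the TATA box TATAAA and the GC box GGGCGG, on either strand, and the capital at the left end of VGF belongs to a GC box that begins outside the stretch.
PCSK1N: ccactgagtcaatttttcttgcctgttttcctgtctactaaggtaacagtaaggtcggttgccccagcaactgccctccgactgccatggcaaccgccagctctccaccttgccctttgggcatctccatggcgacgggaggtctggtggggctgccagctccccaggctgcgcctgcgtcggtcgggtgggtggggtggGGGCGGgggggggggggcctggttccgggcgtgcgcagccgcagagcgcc
PCSK1: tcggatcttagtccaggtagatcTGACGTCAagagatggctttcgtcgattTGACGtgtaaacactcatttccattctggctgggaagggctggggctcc
VGF: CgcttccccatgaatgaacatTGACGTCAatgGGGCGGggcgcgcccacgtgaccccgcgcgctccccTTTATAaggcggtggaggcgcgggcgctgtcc
CHGA: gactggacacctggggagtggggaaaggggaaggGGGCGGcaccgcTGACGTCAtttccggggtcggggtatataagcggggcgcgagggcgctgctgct

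The cAMP response element, the site bound by CREB-family factors, was found in 1 window each of PCSK1, VGF and CHGA. Its first base was at -77, -79 and -54 from the start site. The other PCSK1 window, at a different start site, held neither the full element nor its core TGACG. Windows ran from 250 bases before the start to 50 bases after it. There were 10 such windows for 8 of the 10 genes, SCG2 and CHGB not being in the table, and PCSK1 and PCSK2 having more than 1 start site. The full element was in 3 of the 10 windows and in 1.85% of all 35116 windows. Its core TGACG, which overlaps every full element, was in 8 of 10 windows and in 24.6% of all. These letters are a description of sequence and say nothing on their own about binding.

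The PCSK1N window differed from those 3 in its motifs. It held a GC box at -50 but neither the full element nor its core. Its GC content was 68.3%, against a median of 58.7% over all windows, which placed it at the 76.0th percentile. GC boxes were in 8 of the 10 windows and in 45.0% of all, and TATAAA in 2 of 10 and 11.5%. The RE1 element, through which REST represses neuronal genes, was searched by its arms: CAGCACC was found only in the SCG3 window among the 10, and in 7.75% of all, and GGACAG in 4 of 10 windows and in 20.5% of all.

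The share of acidic codons separated the 5 genes grouped here as granins from the convertases, CPE and the binding proteins. Aspartate and glutamate codons made up 23.6% of CHGA, 22.9% of CHGB, 19.7% of SCG3, 19.5% of VGF and 19.4% of SCG2. The median over 19061 human coding sequences was 11.4% and the 95th percentile 17.6%, so these 5 genes all lay above the 95th percentile. SCG5, CPE, PCSK1, PCSK1N and PCSK2 lay between 12.4% and 14.2%, none above it.

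Pairs of adjacent lysine or arginine codons, where convertases cut, varied among the granins. CHGB had 19 pairs in 677 codons and VGF 17 in 615, or 2.81 and 2.76 per 100 codons. SCG2 had 9 pairs in 617 codons, or 1.46 per 100, close to the median of 1.45 over all coding sequences. PCSK1N, whose product is itself cut at such sites, had 6 pairs in 260 codons, or 2.31 per 100. None of the 10 reached the 95th percentile of 3.97.

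**Figure D1:**
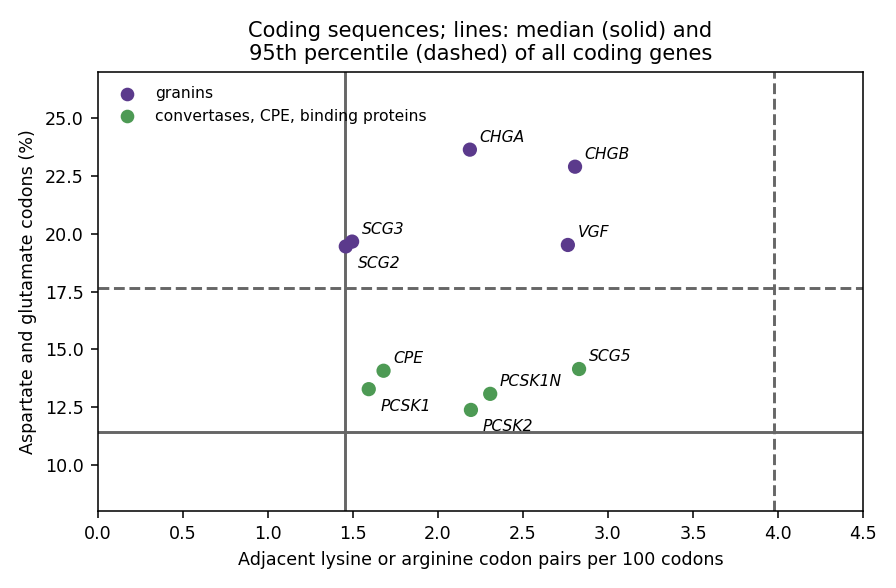
Coding sequence features of the 10 genes: the share of aspartate and glutamate codons (vertical axis, %) against adjacent lysine or arginine codon pairs per 100 codons (horizontal axis), with the median (solid) and 95th percentile (dashed) of 19061 coding sequences. CHGA, CHGB, SCG2, SCG3 and VGF sit above 17.6% acidic codons, and the enzymes and binding proteins sit between 12.4% and 14.2%.

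Of the 10 genes, 6 passed the filter on low counts (PCSK1N, PCSK1, CPE, SCG2, CHGB and VGF) and 4 did not (PCSK2, SCG3, SCG5 and CHGA). Because the genes were chosen from this comparison, the calls that follow describe the choice and are no test of it. In the fit over all genes, 0 of the 6 were called higher in NUAK2-CR and 2 were called lower, PCSK1N and SCG2, while 26.3% of all tested genes were called higher and 28.2% lower. With an absolute log2 fold change over 2 required as well, 0 were higher and 1, PCSK1N, was lower, against 1.89% and 2.83% of all tested genes. The values of WT and NUAK2-CR did not overlap for the same 2 genes, both with NUAK2-CR lower, and overlapped for the other 4. Over all tested genes, 29.8% did not overlap with NUAK2-CR higher and 31.5% with NUAK2-CR lower. The median log2 fold change of the 6 was -0.09, and that of all tested genes -0.01. PCSK1N passed the filter through its WT libraries alone, and nothing is read from these counts.

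**Figure D2:**
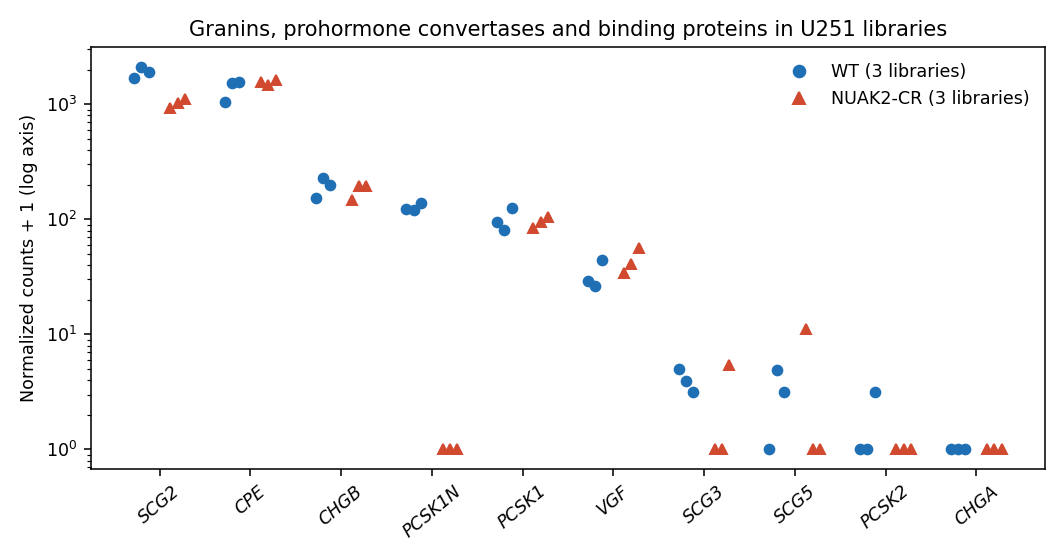
Normalized counts plus 1 (vertical log axis) of the 10 genes in each of 3 WT libraries (circles) and 3 NUAK2-CR libraries (triangles). PCSK1N lies between 118.7 and 136.5 in WT and at 0 in NUAK2-CR, SCG2 is lower in all 3 NUAK2-CR libraries, and the groups overlap for CPE, CHGB, PCSK1 and VGF.

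SCG2 was the granin with the highest level in these cells. It encodes secretogranin II, the precursor of secretoneurin, and lies on chromosome 2 (hg38, 223596940 to 223602361, minus strand, 2 exons). Its normalized counts were 1699, 2131 and 1912 for WT and 919, 1025 and 1114 for NUAK2-CR. Every NUAK2-CR library was below every WT library. The means were 1914 ± 216 and 1020 ± 97.6 (SD, n = 3 each), a log2 fold change of -0.91 with a standard error of 0.10. In bulk RNA, fewer cells with the transcript and less transcript per cell cannot be told apart.

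CHGB, the precursor of chromogranin B on chromosome 20 (5911510 to 5925353, plus strand, 5 exons), had 153.4, 226.7 and 196.7 normalized counts in WT. In NUAK2-CR it had 147.3, 195.4 and 194.3. The groups overlapped, and the lowest library of each was replicate 1. The log2 fold change was -0.10 with a standard error of 0.19, and it was 0.04 without WT replicate 2 and 0.04 without NUAK2-CR replicate 1. The ratio of SCG2 to CHGB, both per kb of transcript, was 10.2 ± 0.898 in WT and 5.81 ± 0.503 in NUAK2-CR (SD, n = 3 each).

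VGF, whose product is cut into several neuropeptides (chromosome 7, 101162509 to 101169952, minus strand, 2 exons), was the lowest of the 6 tested genes in level in WT. Normalized counts of VGF were 27.9, 25.1 and 43.0 for WT and 33.0, 39.8 and 54.9 for NUAK2-CR. The highest WT library exceeded 2 of the NUAK2-CR libraries. Its log2 fold change was 0.43 with a standard error of 0.35.

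CHGA, which encodes chromogranin A, the granin most used as a marker of endocrine cells (chromosome 14, 92922664 to 92935285), had 0 counts in all 6 libraries. A count of 0 allows up to 3 counts in a library, a limit that covers counting error only. SCG3, a granin that binds cholesterol-rich granule membrane and CHGA (chromosome 15, 51681503 to 51721026), had counts of 6, 3 and 2 for WT and 0, 0 and 4 for NUAK2-CR. No difference in SCG3 was detectable at this depth. Among the granins, SCG2, CHGB and VGF were above that limit in every library.

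PCSK1N, the inhibitor of PCSK1, is on the X chromosome (48831096 to 48835610, minus strand, 3 exons). The WT libraries held 182, 123 and 127 counts of it and every NUAK2-CR library held 0. After scaling these were 120.9, 118.7 and 136.5 normalized counts in WT, or 125 ± 9.73 (SD, n = 3). WT libraries lay close to each other and far from the NUAK2-CR libraries. With 3 counts allowed in each NUAK2-CR library, NUAK2-CR cells had a level at least 35.1-fold lower. That limit takes counts as independent. Among counts from 1 to 10, 67.6% were even, so the bound may be smaller, and the cause was not tested.

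PCSK1 (chromosome 5, 96390333 to 96433248, minus strand, 14 exons), the convertase that PCSK1N inhibits, was similar in level. Normalized counts of PCSK1 were 93.7, 80.1 and 123.6 for WT and 83.8, 94.1 and 103.2 for NUAK2-CR. All 3 NUAK2-CR libraries lay within the range of WT. Means were 99.1 ± 22.3 and 93.7 ± 9.70 (SD, n = 3 each), and the log2 fold change of -0.08 had a standard error of 0.23. It was 0.10 without WT replicate 3 and 0.02 without NUAK2-CR replicate 1. Per kb of transcript, PCSK1 stood at 0.157 ± 0.023 of PCSK1N in WT. In NUAK2-CR no such ratio can be given, PCSK1N being at 0.

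PCSK2, the other granule convertase (chromosome 20, 17226107 to 17484578), had counts of 0, 0 and 2 for WT and of 0 for every NUAK2-CR library. Its chaperone SCG5 (chromosome 15, 32641710 to 32697092) had counts of 0, 4 and 2 for WT and of 8, 0 and 0 for NUAK2-CR. Neither gene showed a level that these libraries could separate from the limit of 3 counts in more than 1 library per group. SCG5 is also uncertain because 51.4% of its exon bases (1129 of 2196) are shared with the readthrough gene ARHGAP11A-SCG5 on the same strand.

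CPE, which removes basic residues after convertase cleavage and also acts as a sorting receptor (chromosome 4, 165379008 to 165498547, plus strand, 9 exons), was abundant in both groups. Normalized counts of CPE were 1055, 1541 and 1549 for WT and 1568, 1466 and 1619 for NUAK2-CR. WT replicate 1 was the lowest of the 6, and the other WT libraries lay within the range of NUAK2-CR. Its log2 fold change was 0.17 with a standard error of 0.13, and 0.01 without WT replicate 1.

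Levels were compared between genes per kb of transcript. In WT the order was SCG2 at 786 ± 88.7, CPE at 535 ± 110, PCSK1N at 122 ± 9.49, CHGB at 78.1 ± 14.96, PCSK1 at 19.3 ± 4.34 and VGF at 12.5 ± 3.78 normalized counts per kb (SD, n = 3). PCSK1 and VGF were neighbours in this order and differed by less than the sum of their SDs. The median over all tested genes with a transcript length was 294. SCG2 and CPE lay above it, at the 73.8th and 64.7th percentile, and the other 4 below it, from the 8.74th to the 32.0th.

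In NUAK2-CR, CPE came first at 601 ± 30.1, followed by SCG2 at 419 ± 40.1 and CHGB at 72.7 ± 11.2. PCSK1 at 18.2 ± 1.89 and VGF at 16.7 ± 4.39 followed and again differed by less than the sum of their SDs. The per-kb ratio of SCG2 to CPE was 1.495 ± 0.201 in WT and 0.698 ± 0.066 in NUAK2-CR. That ratio was above 1 in every WT library and below 1 in every NUAK2-CR library. The summed normalized counts of the 10 genes were 3154, 4129 and 3968 in WT and 2762, 2821 and 3090 in NUAK2-CR, most of them from SCG2 and CPE.

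Other proprotein convertases were present alongside PCSK1, among them FURIN, which works in the trans-Golgi network and at the cell surface of most cells. FURIN stood at 2530 ± 51.0 normalized counts per kb in WT and 1728 ± 52.0 in NUAK2-CR, so that PCSK1 was 0.008 of FURIN in WT and 0.011 in NUAK2-CR. FURIN fell with a log2 fold change of -0.55 and an adjusted p of 1.22e-05. PCSK5 fell from 526 ± 49.7 to 170 ± 30.2 normalized counts (log2 fold change -1.63, adjusted p = 2.12e-06), and PCSK7 fell by 0.37 on the log2 scale (adjusted p = 0.000628). PCSK4 rose by 0.97 (adjusted p = 0.00154) and MBTPS1, which cleaves the SREBP precursors, by 0.29 (adjusted p = 0.009). PCSK6, with 18.0 ± 2.82 and 28.4 ± 7.57 normalized counts, did not pass the test (adjusted p = 0.168).

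Among carboxypeptidases, CPD, which trims the products of FURIN, was the nearest in level to CPE, at 784 ± 76.6 normalized counts per kb in WT and 695 ± 32.6 in NUAK2-CR. CPD did not pass the test (log2 fold change -0.17, adjusted p = 0.0836). The per-kb ratio of CPE to CPD was 0.680 ± 0.102 in WT and 0.865 ± 0.040 in NUAK2-CR, with every NUAK2-CR library above every WT library. CPM, a membrane-bound carboxypeptidase gene, fell from 36.3 ± 13.8 to 2.42 ± 2.55 normalized counts, and CPZ rose from 3.21 ± 1.42 to 22.4 ± 3.43 (adjusted p = 0.000333 and 0.000744). The lower group of each stood near the limit of 3 counts. Each gene passed the filter through its higher group alone, so the size of either change is uncertain. CPN1 had no count in any library.

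**Figure D3:**
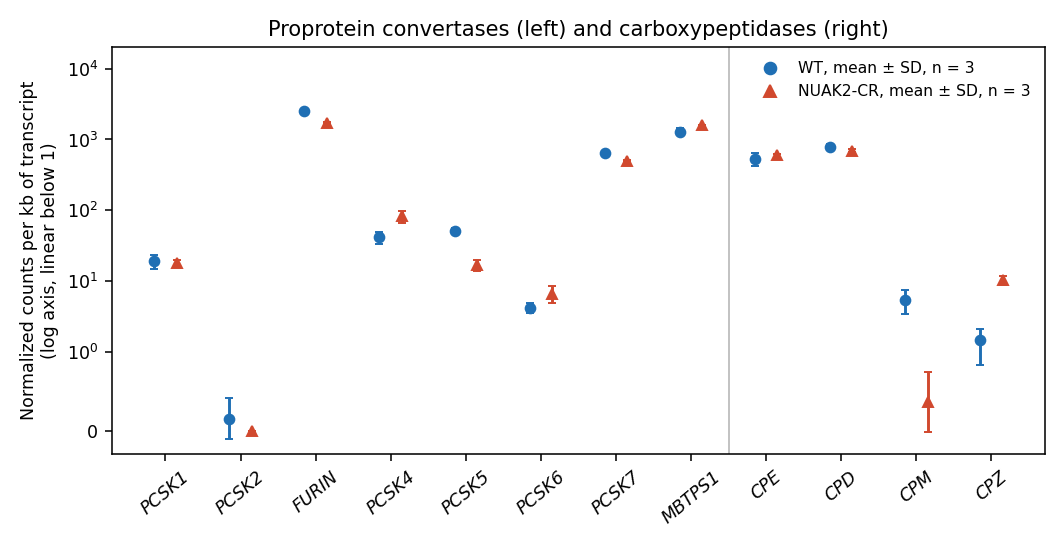
Mean normalized counts per kb of transcript (vertical axis, log above 1 and linear below) of 8 proprotein convertases and 4 carboxypeptidases in WT (circles) and NUAK2-CR (triangles), with SD bars over 3 libraries. PCSK1 lies near 19.3 in WT and 18.2 in NUAK2-CR, far below FURIN at 2530 and 1728, and CPE lies beside CPD.

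Of 29 other proteases, carboxypeptidases and peptide-modifying enzymes, 23 were tested: 7 were higher, 9 were lower and 7 were not called, with a median log2 fold change of -0.13. PAM, which amidates peptide ends inside granules, rose by 0.34 (adjusted p = 0.0126). The highest changes among the abundant genes were those of MME, the neprilysin gene (1685 ± 208 to 5107 ± 113 normalized counts, log2 fold change 1.60), PCSK4 and CTSB (0.90). The lowest were those of PCSK5, PREP, a cytosolic prolyl peptidase (-0.98), and RNPEP, an aminopeptidase for basic residues (-0.91).

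Peptide and neurotrophin precursors were listed as candidate substrates of this machinery, and their cleavage was not measured. Of 89 precursor genes in the table, 44 were at or under 3 counts in every library, INS, GCG, SST, TAC1 and CCK at 0 among them, and 28 were tested. Of those, 7 were higher, 9 lower and 12 not called, with a median log2 fold change of 0.03. PTHLH, the parathyroid hormone-like hormone gene, fell from 965 ± 128 to 204 ± 40.7 normalized counts (log2 fold change -2.24, adjusted p = 1.29e-07). The neuropeptide genes NMU and NMB fell, with log2 fold changes of -1.002 and -0.92. AGT, the angiotensinogen gene, rose from 111 ± 6.82 to 733 ± 44.3 (log2 fold change 2.73, adjusted p = 3.51e-09), STC2 by 1.97 and ADM, the adrenomedullin gene, by 1.76.

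GAL, the galanin precursor gene, was singled out after its values had been seen because it was also at 0 in every NUAK2-CR library. It had 31, 12 and 14 counts in WT, so with 3 counts allowed per library NUAK2-CR was at least 4.40-fold lower, a value given as a description.

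Genes of granule formation, acidification, membrane and release gave 49 tested of 61, with 15 higher, 16 lower and 18 not called and a median log2 fold change of 0.03. CADPS, which primes dense-core granules for release, rose from 66.4 ± 8.002 to 2230 ± 56.3 normalized counts (log2 fold change 5.05, adjusted p = 1.07e-11). The zinc transporter genes TMEM163 and SLC30A3 rose by 1.84 and 1.46. SORL1, a sorting receptor of the Golgi, SYTL5, a RAB27 effector, and ICA1 fell, with log2 fold changes of -1.80, -1.43 and -0.79. PTPRN2, a transmembrane protein of the granule, had 134 ± 22.0 and 175 ± 10.9 normalized counts and did not pass the test (adjusted p = 0.0988). Over the same comparison, 26.3% and 28.2% of all tested genes were called higher and lower, and nothing particular to these lists is read from their counts.

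**Figure D4:**
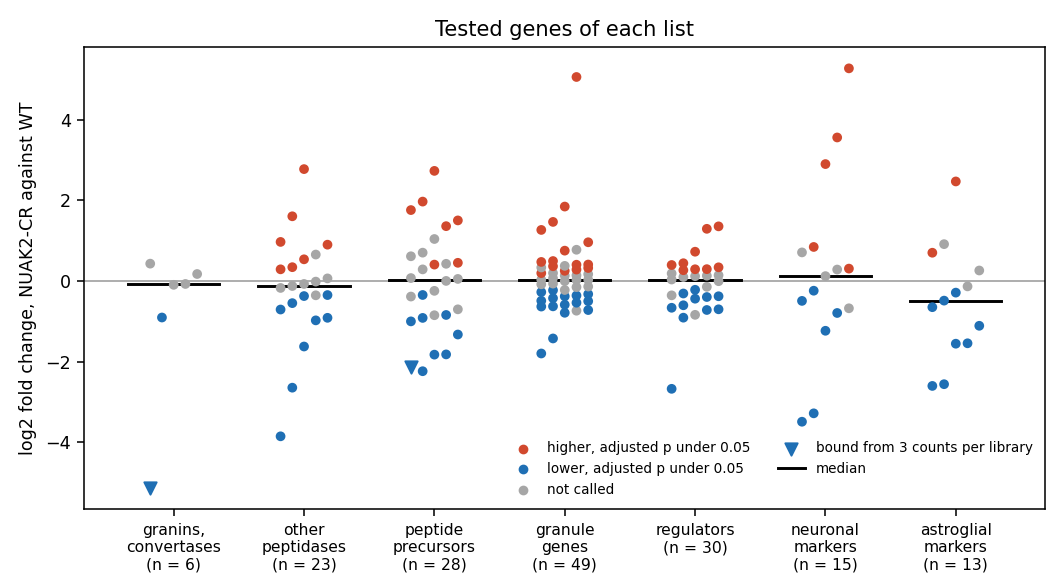
Log2 fold changes of NUAK2-CR against WT (vertical axis) for the tested genes of 7 lists, coloured by call, with the list's median as a bar and genes at 0 in NUAK2-CR drawn as triangles at the bound given by 3 counts per library. Medians lie between -0.49 (astroglial markers) and 0.12 (neuronal markers), and that of the granins and convertases is -0.09.

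REST and CREB-family factors with their cofactors, and neuroendocrine transcription factors, were counted in the same way. Of 48 listed, 30 were tested, with 9 higher, 11 lower and 10 not called, beside 26.3% higher and 28.2% lower over all tested genes. REST, the repressor of neuronal genes through the RE1 element, rose from 1843 ± 151 to 2499 ± 132 normalized counts (log2 fold change 0.44, adjusted p = 0.000471), and CTDSP1, a phosphatase that acts with REST, rose by 0.72. KDM1A, a demethylase of the REST corepressor complex, fell by 0.72. CREB1, which binds the cAMP response element, did not pass the test (log2 fold change 0.19, adjusted p = 0.0983). POU3F2, a neural POU factor, fell from 4342 ± 136 to 681 ± 77.0 (log2 fold change -2.67, adjusted p = 3.45e-10) and PROX1 fell by 0.91, while the immediate early gene EGR1 rose by 1.29. Any part of these changes in the levels of the granins was not tested.

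Markers of cell identity were counted beside the same shares of 26.3% higher and 28.2% lower over all tested genes. Of 15 tested neuronal and neuroendocrine markers, 5 were higher, 6 lower and 4 not called. SNAP25, a SNARE of exocytosis, and ELAVL3 rose by 3.56 and 2.90 and L1CAM by 0.84, while NEFL, GAP43 and NCAM1 fell, with log2 fold changes of -3.49, -3.28 and -0.79. Their summed normalized counts ranged from 73632 to 77199 in WT and from 47968 to 49756 in NUAK2-CR. Of 13 tested astroglial markers, 2 were higher (CHI3L1 by 2.47 and EGFR by 0.70) and 8 were lower, among them S100B, GFAP and NES with log2 fold changes of -2.60, -2.56 and -1.56. The sums of all 15 listed astroglial markers ranged from 400736 to 452987 in WT and from 227105 to 237557 in NUAK2-CR. Of 8 tested markers of leukocytes, endothelium and epithelium, 3 were higher, 2 lower and 3 not called, and the sums of that list ranged from 4219 to 4849 in WT and from 5559 to 6122 in NUAK2-CR. The part of these shifts in the lower SCG2 and PCSK1N was not tested.

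The genes around PCSK1N were lower too, but by less. The nearest tested gene on either side was HDAC6, 6114 bases away, with 3157 ± 272 normalized counts in WT and 2229 ± 70.1 in NUAK2-CR (log2 fold change -0.50, adjusted p = 0.000125). TIMM17B, 57837 bases away on the other side, had 1623.5 ± 117 and 919 ± 78.4 (log2 fold change -0.82, adjusted p = 8.68e-06). Among the 10 nearest tested genes on each side, 17 of 20 were called lower and 0 higher, with a median log2 fold change of -0.49 and a range from -4.76 to -0.09. The lowest was CCDC120, which fell from 132 ± 51.0 to 4.84 ± 2.53. Both flanking genes were well expressed in NUAK2-CR while PCSK1N, which lies between them, was at 0, and the cause was not tested.

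Chromosome X as a whole was lower by a similar amount: the median log2 fold change of its 547 other tested genes was -0.40, with 41 called higher and 300 lower. Whether that shift has a part in the level of PCSK1N was not tested. For SCG2, the median of the 20 nearest tested genes was 0.05 and that of the 998 other tested genes of chromosome 2 was 0.13. Its flanking genes were KCNE4, which did not pass the test (log2 fold change 0.14, adjusted p = 0.183), and AP1S3, which fell by 0.52 (adjusted p = 0.00511). SCG2 itself stood at -0.91, below both flanking genes.

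**Figure D5:**
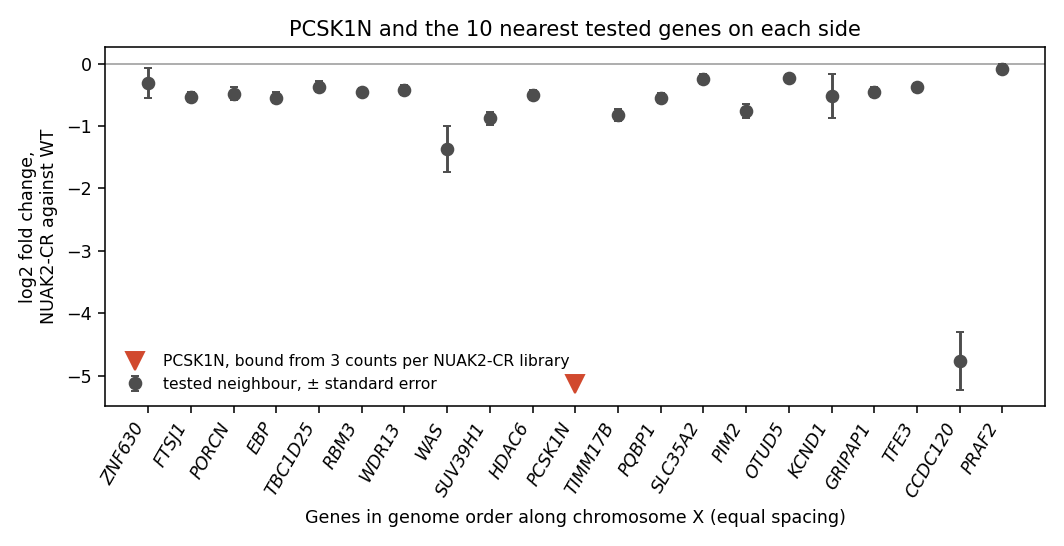
Log2 fold change of NUAK2-CR against WT (vertical axis, ± standard error) for the 10 nearest tested genes on each side of PCSK1N in genome order along chromosome X (horizontal axis, equal spacing). PCSK1N is drawn as a triangle at its bound of at least 35.1-fold lower, with 3 counts allowed per NUAK2-CR library. Of the 20 neighbours 17 are called lower, with CCDC120 at -4.76 the lowest.

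Neighbours of the other members showed no shared direction. Their median log2 fold change was -0.27 around PCSK1, 0.28 around PCSK2, 0.09 around CPE, 0.04 around SCG3, -0.31 around SCG5, -0.07 around CHGA, 0.85 around CHGB and 0.16 around VGF. Around CHGB 15 of 20 neighbours rose and 0 fell, while CHGB stood at -0.10 and its flanking genes SHLD1 and TRMT6 at -0.59 and 0.03 did not pass the test. Over the 402 other tested genes of chromosome 20 the median was 0.22, and 170 were called higher and 51 lower. With the 5 nearest genes on each side in place of 10, the median was 0.29 around CHGB and 0.65 around CPE. The tested gene before PCSK1 was CAST, whose annotated span covers PCSK1 and which fell by 1.10 (adjusted p = 5.72e-08), and the one after it was ERAP1 at -0.02, not called. CPE was flanked by MSMO1 at 0.11, not called, and by TLL1, which rose by 0.86. VGF was flanked by AP1S1 at -0.08, not called, and by PLOD3, which rose by 0.30. The nearest tested genes of SCG5 were ARHGAP11A at -0.35, not called, and FMN1, which rose by 2.18. GOLGA5 and ITPK1 beside CHGA were both at 0.03, SNRPB2 and BFSP1 beside PCSK2 at -0.01 and 0.27, and DMXL2 and LYSMD2 beside SCG3 at 0.04 and 0.05, none of them called.

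The 5 tested genes whose log2 CPM over the 6 libraries followed PCSK1N most closely, by Pearson correlation, were PASD1, RBP4, SSX2, SLITRK4 and ECT2. The first 4 were also at 0 in all NUAK2-CR libraries, and r, from 0.9998 to 0.99997 over 6 libraries that all share this split, is a description. PASD1, a cancer/testis gene on chromosome X, had 332, 210 and 233 counts in WT, and RBP4, the plasma retinol-binding protein gene on chromosome 10, had 38, 25 and 26. ECT2, a guanine exchange factor of cytokinesis, was at 8265 ± 130 normalized counts in WT and 4387 ± 33.4 in NUAK2-CR.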

How the data were processed

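RNA-sequencing of polyadenylated RNA (TRIzol, Illumina Stranded mRNA Prep) covered 3 WT and 3 NUAK2-CR libraries of U251 cells, grouped and numbered by their labels. The authors used Trimmomatic for trimming, HISAT2 for alignment to hg38 and featureCounts for counting, and the deposited values are raw counts per gene. Default parameters were stated for each, which in featureCounts means counting without strand, so reads of genes overlapping on opposite strands cannot be told apart. The gene annotation is not given in the sources used here. Of 28395 NCBI identifiers, 27745 matched a symbol and 650 did not.

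Counts were analysed in R 4.3.3 with edgeR 4.0.16 (filterByExpr, TMM, quasi-likelihood F test, Benjamini-Hochberg adjustment over 14873 genes). A gene was called at an adjusted p under 0.05, and was a DEG with an absolute log2 fold change over 2 as well. The script was tested on simulated counts. Fold changes against a group at 0 are bounds from 3 counts per library. Lengths, exons and coding sequences came from GENCODE v44 MANE transcripts, and start site windows from RefSeq. Alternatives were DESeq2 1.42.0, RLE and library-size scaling, 2 other filters, a prior count of 2, an absolute log2 fold change over 1, a replicate block, 5 neighbours in place of 10, and each library left out in turn. Same-numbered libraries were checked for pairing: their deviations from the group means correlated at 0.04, -0.04 and 0.05, so the number was not taken as a pairing. Among counts from 1 to 10, 67.6% were even, and counting limits do not cover the cause of this, which was not tested. All fold bounds from 3 counts per library may therefore be smaller than stated. Tables and figures were made in Python 3.11.15 (pandas 2.3.3, matplotlib 3.10.9).

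The genes and all lists were chosen with earlier results of these data known. Named genes are the 10 members, NUAK2, REST, paralogs of PCSK1 and CPE, the 3 highest and 3 lowest called genes of each list whose higher group averaged 100 or more normalized counts, the nearest tested gene on each side of each member, and the 5 genes most correlated with PCSK1N. Other genes named were chosen after their values were seen.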

Additional observations from a re-analysis of the deposited data

How the results depend on the processing

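PCSK1N, SCG2, CPE and VGF kept the sign of their fold changes under every alternative that gave a value, SCG2 from -0.98 to -0.82, CPE from 0.01 to 0.26 and VGF from 0.20 to 0.68 over 14 settings each. With at least 10 counts required in every library, PCSK1N was not tested by construction and 1 member was called lower, and 187 genes were DEGs higher and 152 lower. With an absolute log2 fold change over 1, 1027 genes were higher and 1035 lower. Leaving out 1 library turned PCSK1 from -0.08 to 0.10 (WT replicate 3) or 0.02 (NUAK2-CR replicate 1), and CHGB from -0.10 to 0.038 (WT replicate 2) or 0.042 (NUAK2-CR replicate 1), none of them called, and the cause was not tested. The ranges over all such fits were -0.21 to 0.10 for PCSK1 and -0.234 to 0.042 for CHGB. Leaving out each library in turn gave 3424 to 4182 genes higher and 3716 to 4299 lower, 291 to 329 DEGs higher and 431 to 506 lower. With 5 neighbours on each side in place of 10, the medians around SCG2, SCG3, CPE and CHGB were -0.10, -0.09, 0.65 and 0.29.

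With the replicate number as a block, 3972 genes were higher and 4195 lower, 283 and 426 of them DEGs, and 14 granule genes were higher in place of 15. Same-numbered libraries did not deviate together, so the block stands for a shared number only. DESeq2 gave 3924 genes higher and 4122 lower, with 338 and 560 DEGs. PCSK2, SCG3, SCG5 and CHGA had too few counts for a test.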

Other observations

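PCSK1N was 1 of 7 genes that averaged 100 or more normalized counts in WT and had 0 counts in all 3 NUAK2-CR libraries, out of 11682 tested genes at or above that mean, and 4 of the 7 lie on chromosome X, as do 425 of the 11682. The others were CDO1, the cysteine dioxygenase gene, at 244 ± 22.3 normalized counts in WT, ZNF518B at 519 ± 37.3, PASD1 at 225 ± 24.2, SSX2B at 119 ± 17.9, DCAF12L2 at 116 ± 5.37 and RPL39L, a ribosomal protein paralog, at 108 ± 39.1. They were at least 30.2-fold to at least 145-fold lower with 3 counts allowed per library. SSX2B and RPL39L have near-identical copies elsewhere, so their counts are uncertain. No gene was at 0 in all WT libraries with a mean of at least 100 in NUAK2-CR.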
